A study of Homo sapiens with 6 samples.

Results

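Midkine (MDK), pleiotrophin (PTN) and 4 of their known receptors (PTPRZ1, ALK, LRP1 and NCL) were followed in an RNA-seq experiment on hFOB 1.19 cells, 6 genes of the 35639 in the expression table. MDK was chosen on its measured values, because it was higher in both H3.3-G34W libraries than in the controls, and its values are therefore given as a description without a test. PTN was added as its paralog and the other 4 genes as described receptors. Midkine and pleiotrophin are small secreted proteins that bind heparan and chondroitin sulfate chains, are most abundant in developing tissues and act on growth, migration and survival of neighbouring cells. In bone, pleiotrophin is known for attracting osteoblasts, and mice without midkine have more trabecular bone. PTPRZ1 is a receptor tyrosine phosphatase whose activity falls when pleiotrophin binds it, ALK is a receptor tyrosine kinase, LRP1 is an endocytic receptor, and NCL (nucleolin) is a nucleolar protein of which a part reaches the cell surface.

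All groups derive from hFOB 1.19, an osteoblastic line of human fetal origin. Each carries the temperature-sensitive form of SV40 large T antigen that immortalised the line, and all cells were grown at 34 °C. The 3 groups were cells transduced with an empty lentiviral vector (EV), with HA-tagged wild-type histone H3.3 (WT) or with HA-tagged H3.3-G34W (G34W), in which tryptophan replaces a glycine of the histone tail. The transgenes were Drosophila H3.3 cDNAs, and each line was a sorted population of cells positive for the vector's fluorescent reporter, not a clone, while the cells still held their own H3.3 genes. There were 2 libraries per group, collected in duplicate. Replicates are defined in the study's methods as wells within an experiment, and whether these libraries came from separate infections is not given in the sources used here, so that the p-values measure only the spread between these libraries. The groups follow the library titles. In the labels, however, the genotype field swaps WT and G34W, and every direction between WT and G34W below would turn if that field were right. The transgene itself, a Drosophila sequence, was not analysed here. SCUBE3, a secreted protein gene that the study followed up, was examined beside the titles for this reason and is outside the rule for named genes. It held 535 in EV replicate 2, 520.4 and 559.6 in the libraries titled WT, and 117 and 137 in those titled G34W. The libraries titled G34W thus stood apart from EV replicate 2 for this gene, and those titled WT did not.

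The values are normalised estimated counts, for which no read depth is known. They summed to between 38821143 (G34W replicate 1) and 48024590 (WT replicate 2) in 5 libraries and to 157595150 in EV replicate 1. In EV replicate 1, 80.5% of the genes were listed at 0. Among expressed genes, meaning those whose mean in the remaining 5 libraries was above 50, this library was above 0 for 99.8% of the genes on chromosomes 10 and 11, for 81.6% on chromosome 12 and for 29.7% elsewhere. The comparisons therefore rest on EV replicate 2, both WT and both G34W libraries. EV replicate 1 is given for MDK (chromosome 11) and LRP1 (chromosome 12) after division by 23.9, its median ratio to EV replicate 2 over 754 expressed genes of chromosome 11 (interquartile range 21.0 to 26.9). G34W replicate 1 also stood apart. Its values were on balance lower, with a median log2 ratio to the WT mean of -0.21 over the 13403 expressed genes against 0.03 in G34W replicate 2, and 12 markers of pluripotent stem cells summed to 66363 in it against 955 to 1142 in EV replicate 2, both WT libraries and G34W replicate 2.

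The label of the cells was checked against 12 osteoblast genes. COL1A2, a chain of type I collagen, was the most abundant of them by deposited value, with 90034 to 138799 over the 5 libraries, and SPARC, a matrix protein of bone, ranged from 72998 to 85409. Of the genes linked to later osteoblast stages, some were near 0 and others were not. IBSP (bone sialoprotein) was listed at 0 in every library but EV replicate 2, where it was 2.50, SP7 (osterix) ranged from 1.43 to 6.03 and BGLAP (osteocalcin) from 4.08 to 44.9. SPP1 (osteopontin), however, ranged from 171 to 649. ALPL (alkaline phosphatase) held 1216 in G34W replicate 1, the library with the high sum of pluripotent stem cell markers. Elsewhere among the 5 libraries it ranged from 107 in G34W replicate 2 to 428 in EV replicate 2. The 12 genes summed to 223143 in EV replicate 2, 204394 and 217247 in the WT libraries, and 194571 and 265291 in the G34W libraries.

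MDK lies at chr11:46380784-46383837 of GRCh38.p14. Its value was 544 in EV replicate 2, 337 and 489 in WT replicates 1 and 2, and 1197 and 940.1 in G34W replicates 1 and 2. Both G34W libraries lay above every control. The means were 413 ± 108 (SD, n = 2) in WT and 1069 ± 182 (SD, n = 2) in G34W, a ratio of 2.59, and the log2 fold change was 1.38 on the log2(value + 1) scale, which understates the change of low genes. G34W replicate 2 was 1.73 times EV replicate 2, the highest control of the 5 libraries compared. EV replicate 1 held 13866 as deposited and 579 after rescaling, and G34W replicate 2 was 1.62 times that rescaled value. The scale sets a typical chromosome 11 gene to its EV replicate 2 value. That 579 lies near 544 is therefore no independent agreement of another EV library. The interquartile range of the scale, 21.0 to 26.9, is not carried into 579 or 1.62. Both WT libraries lay below EV replicate 2, with a log2 fold change of -0.42 for WT against it. These are bulk libraries, in which more cells with the transcript and more transcript per cell cannot be told apart. The last 49 bases of the MDK gene overlap CHRM4, a gene on the opposite strand, and whether the libraries and the counting kept the strand is not clear from the sources used here. CHRM4 held at most 39.8 in any of the 5 libraries.

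**Figure D1:**
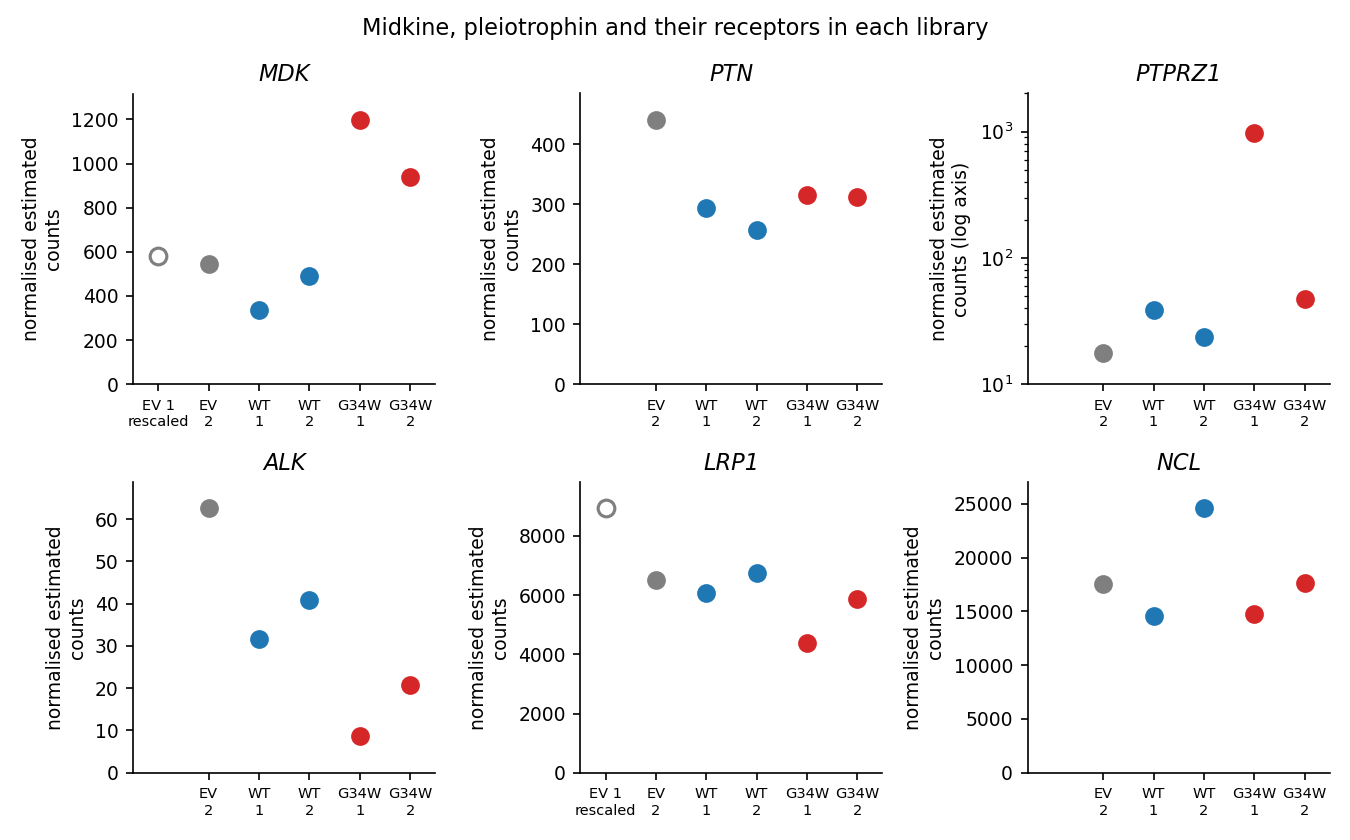
Normalised estimated counts (y axis, linear except for PTPRZ1 on a log axis) of the 6 genes in each library (x axis), 1 point per library, grey for EV, blue for WT and red for G34W, with EV replicate 1 after rescaling as an open circle for MDK and LRP1. The G34W points lie above the controls for MDK and PTPRZ1 and below them for ALK and LRP1. The open circle of LRP1, a gene of chromosome 12, rests on the chromosome 11 ratio.

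PTN, the second ligand, did not share this pattern. It lies at chr7:137227341-137343733 and held 440.2 in EV replicate 2, 293 and 257 in the WT libraries, and 315 and 311 in the G34W libraries. The G34W values were above both WT libraries but below EV replicate 2, so that the highest PTN value belonged to a control. The G34W mean was 313 ± 2.78 (SD, n = 2) and the WT mean 275 ± 25.3 (SD, n = 2). The log2 fold change of G34W against WT was 0.19 (SE 0.20, limma adjusted p = 0.912), and its 95% interval of -0.43 to 0.81 holds both a small decrease and an increase. EV replicate 1 was listed at 0 for PTN, as for most genes outside chromosomes 10, 11 and 12. The ratio of MDK to PTN, each divided by the length of its canonical transcript, was 2.21 in EV replicate 2, 2.05 and 3.40 in the WT libraries, and 6.78 and 5.39 in the G34W libraries. MDK was thus the more abundant ligand transcript per length in each of these 5 libraries.

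Of the 2 signalling receptors, the phosphatase PTPRZ1 (chr7:121873161-122062036) held 17.5 in EV replicate 2, 38.6 and 23.6 in the WT libraries, 969.6 in G34W replicate 1 and 47.7 in G34W replicate 2. Both G34W libraries were again above the controls, but by very unequal amounts. G34W replicate 1 was 25.1 times the highest control and G34W replicate 2 was 1.24 times. PTPRZ1 counts as expressed only through G34W replicate 1, since the mean of the other 4 libraries was 31.9. The log2 fold change against WT was 2.80 (SE 1.76, limma adjusted p = 0.906, interval -2.69 to 8.29), and 0.64 without G34W replicate 1.

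ALK (chr2:29192774-29921586) went the other way. It held 62.5 in EV replicate 2, 31.7 and 41.0 in the WT libraries, and 8.63 and 20.8 in the G34W libraries, every value low and both G34W values below the controls. The mean over the 5 libraries was 32.9, under the limit for an expressed gene. The log2 fold change against WT was -1.35 (SE 0.53, limma adjusted p = 0.906, interval -2.99 to 0.29), and -0.77 without G34W replicate 1. Against EV replicate 2 it was -2.13 (limma adjusted p = 0.928), with an interval of -4.14 to -0.12. ALK was the one tested gene of the 6 with an unadjusted limma p under 0.05 in that comparison. Of all 24560 genes fitted, 5.37% had such a p, so nothing is read from this count.

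RefSeq promoter windows were found for 5 of the 6 genes, the missing one being MDK. Those of PTPRZ1 and ALK are shown because in these receptors, which add or remove phosphate on tyrosines, the G34W values lay on opposite sides of the controls. Each is the 250 bases upstream of the start, 5′ to 3′ on the strand of the gene, with matches to the GC box GGGCGG on either strand in capitals. The PTPRZ1 window is chr7:121872911-121873160 (plus strand) and that of ALK, for the RefSeq start at the 5′ end of the whole gene, chr2:29921587-29921836 (minus strand), both on GRCh38.p14.
PTPRZ1: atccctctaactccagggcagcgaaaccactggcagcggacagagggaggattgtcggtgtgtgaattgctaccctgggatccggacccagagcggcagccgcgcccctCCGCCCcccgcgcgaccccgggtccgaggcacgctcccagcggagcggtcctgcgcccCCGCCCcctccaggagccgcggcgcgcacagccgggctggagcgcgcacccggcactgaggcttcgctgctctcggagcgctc
ALK: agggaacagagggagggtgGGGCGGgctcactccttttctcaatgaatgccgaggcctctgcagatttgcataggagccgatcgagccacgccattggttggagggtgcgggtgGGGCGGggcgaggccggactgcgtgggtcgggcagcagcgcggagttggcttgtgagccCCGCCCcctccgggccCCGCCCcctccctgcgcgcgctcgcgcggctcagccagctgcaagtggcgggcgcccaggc

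The PTPRZ1 window holds 2 such matches and the ALK window 4, and 42.6% of the 35116 promoter windows of this length hold at least 1. The G and C content was 73.2% for PTPRZ1 and 71.6% for ALK, against a median of 58% over all windows. A second RefSeq window of ALK, chr2:29223824-29224073 (minus strand), lies within the gene and holds 0 matches, at 53.6%. Among the other members with a window, NCL had 2 matches, LRP1 had 1 and PTN had 0. A match describes these letters and is not a binding site.

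The remaining receptors are expressed far more strongly. LRP1 (chr12:57128483-57213361), which takes up midkine among many other ligands, held 6524 in EV replicate 2, 6071 and 6756 in the WT libraries, and 4371 and 5877 in the G34W libraries. Both G34W libraries were below the 3 controls, G34W replicate 2 by little, at 0.968 of the lowest control. The log2 fold change against WT was -0.34 (SE 0.26, limma adjusted p = 0.906, interval -1.14 to 0.47), and -0.12 without G34W replicate 1. EV replicate 1 gave 8927 after rescaling by the chromosome 11 ratio, above each of the other libraries. No ratio was estimated for chromosome 12, where this library was above 0 for 81.6% of the expressed genes. Whether the chromosome 11 ratio holds for LRP1 was not tested.

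NCL (chr2:231453531-231464484), a main protein of the nucleolus, held 17572 in EV replicate 2, 14573 and 24577 in the WT libraries, and 14740.5 and 17653 in the G34W libraries. Both G34W values lay within the range of the WT libraries, which differed from each other more than the groups did. Its log2 fold change was -0.23 (SE 0.37, limma adjusted p = 0.956, interval -1.38 to 0.92) and turned to 0.15 without WT replicate 2.

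**Figure D2:**
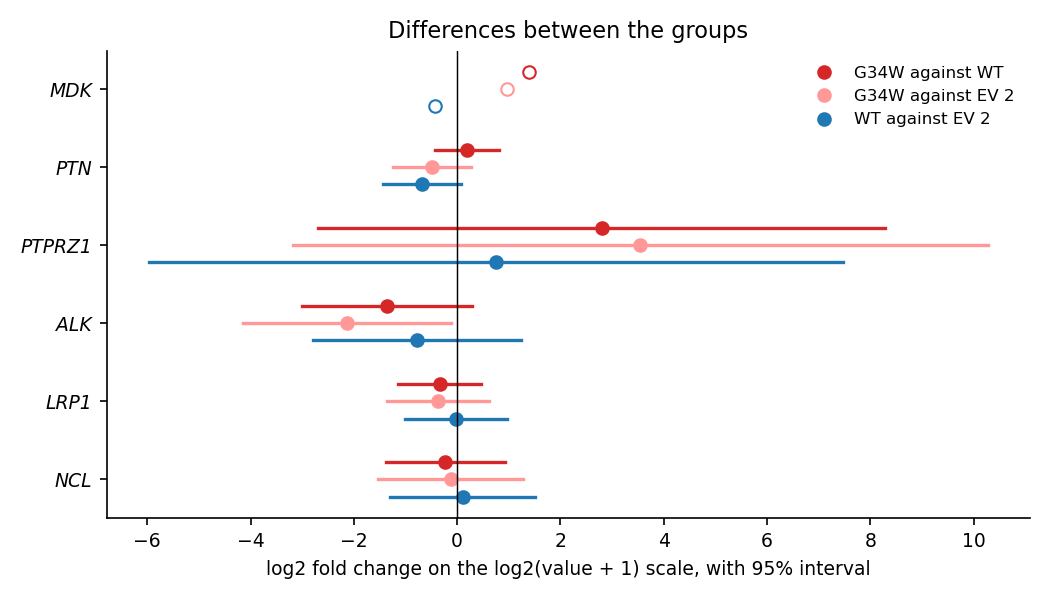
Log2 fold change (x axis) of each gene (y axis) for G34W against WT, G34W against EV replicate 2 and WT against EV replicate 2, with bars for the 95% interval of the limma fit and open circles without bars for MDK, which was chosen on these values. Of the tested intervals, only that of ALK for G34W against EV replicate 2, -4.14 to -0.12, leaves out 0. In that comparison, 5.37% of the 24560 genes fitted had an unadjusted limma p under 0.05.

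To test for differences across the table, 24560 genes were fitted together. With limma, 0 genes (0%) had an adjusted p under 0.05 in G34W against WT, in WT against EV replicate 2 or in G34W against EV replicate 2. At an unadjusted p under 0.05, G34W against WT gave 506 genes that were higher (2.06%) and 508 that were lower (2.07%), WT against EV replicate 2 gave 1277 genes in either direction (5.20%) and G34W against EV replicate 2 gave 1319 (5.37%). Both comparisons with EV gave fewer such genes with all 6 libraries or with a filter of at least 10 in 2 libraries. The count of 0 at an adjusted p under 0.05 held with a pseudocount of 0.1 for G34W against WT only, as given below. The unadjusted counts, and the balance between directions, also hang on single libraries. For G34W against WT they were 619 higher and 1009 lower without WT replicate 1, 554 and 2017 without WT replicate 2, 1492 and 465 without G34W replicate 1, 1751 and 853 without G34W replicate 2, and 38 and 30 with all 6 libraries. Against EV replicate 2, WT gave 2779 genes without WT replicate 2, while G34W gave 2087 without G34W replicate 1 and 3027 without G34W replicate 2. None of PTN, PTPRZ1, ALK, LRP1 and NCL was among those of G34W against WT in the fit of 5 libraries. PTPRZ1 and ALK each had an unadjusted p under 0.05 in 2 of 12 alternative fits, in each case without passing adjustment. The comparisons share libraries and are not independent of each other. With 2 libraries in each group, the smallest p of an exact two-sided permutation test is 0.333, so none was used for single genes.

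Among all 13403 expressed genes, both G34W libraries lay above EV replicate 2 and both WT libraries for 968 (7.22%) and below them for 1293 (9.65%). Of the 6 genes, 5 were expressed, and of these MDK and PTPRZ1 were above and LRP1 below. MDK was picked for this pattern and PTPRZ1 entered only through G34W replicate 1, so nothing is read from the count.

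Levels of different genes were compared per kilobase of the canonical transcript, over EV replicate 2 and both WT libraries. NCL was highest, at 4818 ± 1308 (SD, n = 3), above 94.7% of the 13300 expressed genes with a known length. MDK followed at 549.9 ± 129 (SD, n = 3) and LRP1 at 432 ± 23.3 (SD, n = 3), and these did not differ beyond their spread, since the lowest MDK library, at 405, lay under the lowest LRP1 library, at 407. PTN came next at 223 ± 65.5 (SD, n = 3), below each LRP1 library. ALK, at 7.22 ± 2.54 (SD, n = 3), and PTPRZ1, at 3.28 ± 1.34 (SD, n = 3), came last, with 1.63% and 0.737% of the expressed genes below them. The control cells thus held far more transcript per length of both ligands and of LRP1 and NCL than of the kinase and phosphatase receptors. In G34W, MDK stood at 1288 ± 219 (SD, n = 2) per kilobase, between NCL at 4128 ± 525 (SD, n = 2) and LRP1 at 343 ± 71.4 (SD, n = 2).

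The ligands that activate ALK most directly are ALKAL1 and ALKAL2, which also activate its relative LTK. None of these 3 genes was expressed by the limit above. ALKAL2 held 26.2 in G34W replicate 1, while the other 4 libraries reached no more than 2.13. ALKAL1 was listed at 0 in each library but G34W replicate 1, where it was 1.54. LTK held 10.9 in EV replicate 2, 32.1 and 36.9 in the WT libraries, and 3.89 and 13.3 in the G34W libraries. LTK was thus low in G34W relative to WT, with EV replicate 2 between the G34W values. Its log2 fold change was -2.08 (SE 0.65), with an unadjusted p under 0.05 that did not pass adjustment (limma adjusted p = 0.906).

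Further receptors, co-receptors and carrier proteoglycans were followed in a list of 18 genes, of which 16 were expressed. Their median log2 fold change of G34W against WT was -0.02, against -0.07 over all expressed genes. None had an unadjusted p under 0.05 in that comparison. By deposited value the most abundant were ITGB1, the integrin β1 chain, with 63395 to 79576 over the 5 libraries, and NOTCH2, a Notch receptor, with 17135 to 32189. SDC2 and GPC2 are heparan sulfate proteoglycans of the cell surface, named after their values were seen. They were the 2 of the 16 expressed genes with both G34W libraries above the controls, beside 7.22% of all expressed genes. SDC2 held 1464 in EV replicate 2, 1666 and 1443 in the WT libraries, and 2399.7 and 1832 in the G34W libraries. GPC2 held 171, 234 and 235 in these controls and 251 and 319.7 in G34W.

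The list of proteins that act below PTPRZ1 and ALK held 18 genes, all expressed. Its median log2 fold change was -0.16, with 16 genes lower in G34W and 2 higher, where 59.6% of all expressed genes were lower, and none had an unadjusted p under 0.05. In G34W replicate 1 the median log2 ratio to WT was -0.36 and in G34W replicate 2 it was -0.03, beside -0.21 and 0.03 over all expressed genes. The most abundant were CTNNB1 (β-catenin, whose tyrosine phosphorylation PTPRZ1 limits), with 29179 to 40822, and SHC1, an adaptor of receptor tyrosine kinases. SHC1 held 14596 in EV replicate 2, 13797 and 14803 in the WT libraries, and 11977 and 13046 in the G34W libraries. Both G34W values were below the controls, as they were for JAK2, a cytoplasmic tyrosine kinase named after its values were seen. JAK2 held 580.1, 624 and 759 in the controls and 531 and 523 in G34W. These 2 of the 18 genes stand beside 9.65% of all expressed genes with both G34W libraries below the controls.

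Midkine and pleiotrophin bind sulfated sugar chains, and 20 sulfotransferases that modify chondroitin and heparan sulfate were followed. Of these, 13 were expressed, with a median log2 fold change of -0.02 and none with an unadjusted p under 0.05. NDST1, an enzyme of early heparan sulfate modification, and HS3ST3A1, a 3-O-sulfotransferase, had the highest deposited values, with 8572 to 12852 and 2335 to 3974. NDST2 and HS6ST1 (named after their values were seen) were the 2 of these 13 with both G34W libraries above the controls, beside 7.22% of all expressed genes. HS6ST1, a 6-O-sulfotransferase, held 1777, 1669 and 1733 in EV replicate 2 and the WT libraries and 1934 and 1873 in G34W. NDST2, a relative of NDST1, held 592 in EV replicate 2, 553 and 602 in the WT libraries, and 858 and 1181 in the G34W libraries. This gene lies on chromosome 10, where EV replicate 1 can be rescaled, and there it reached 1196, above both G34W libraries.

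MDK is known as a gene that retinoic acid induces. Of 20 genes of retinoic acid transport, synthesis, breakdown and response, 15 were expressed, with a median log2 fold change of 0.04 and none with an unadjusted p under 0.05. TGM2, a transglutaminase that retinoic acid induces, held 3637 to 8940.0 and ALDH1A3, which makes retinoic acid, 3976 to 6637. DHRS3, a retinaldehyde reductase named after its values were seen, was the one expressed gene of the list with both G34W libraries above the controls. Of all expressed genes, 7.22% had that pattern. It held 2366 in EV replicate 2, 2278 and 2339 in the WT libraries, and 3429 and 4632 in the G34W libraries. CRABP1, a retinoic acid binding protein also named after its values were seen, held 554 in G34W replicate 1 and at most 11.1 elsewhere among the 5 libraries.

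**Figure D3:**
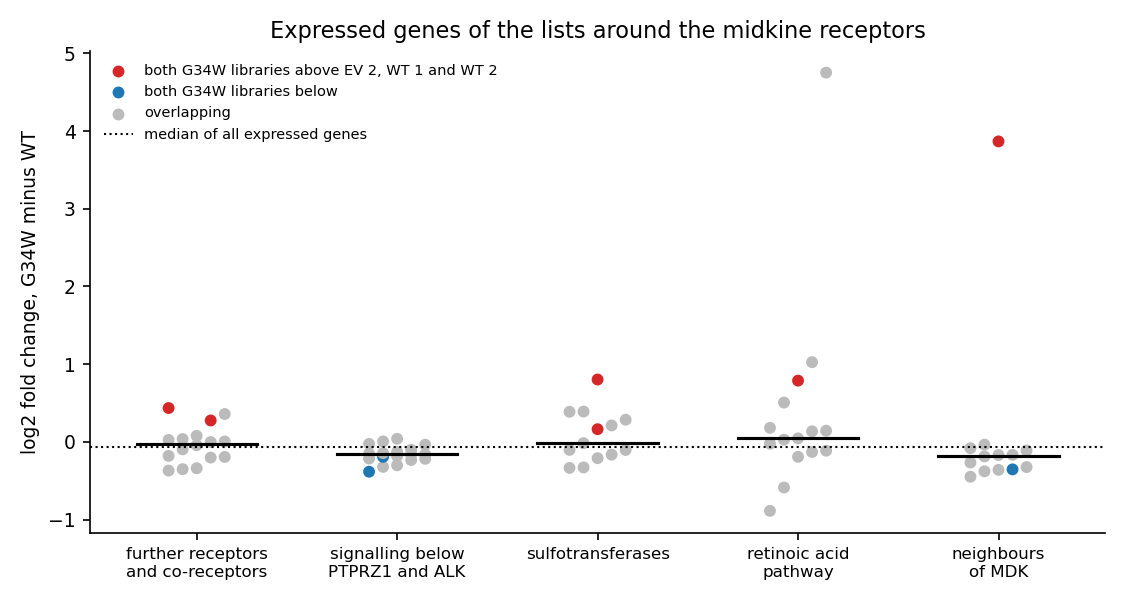
Log2 fold change of G34W against WT (y axis) for each expressed gene of 5 lists (x axis), 1 point per gene, red where both G34W libraries lay above the 3 controls, blue where both lay below and grey otherwise. Black bars are list medians, from -0.19 to 0.04, and the dotted line is the median of all expressed genes, -0.07.

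Over all 6 lists, 75 of 94 genes were expressed. Of these, both G34W libraries lay above the controls for 6 (8.0%) and below for 3 (4.0%). The shares of all expressed genes were 7.22% and 9.65%. The 6 include LARGE2, described below, which counts as expressed only through G34W replicate 1, so nothing is read from their count. The counts depend on single libraries, and so do the shares over all expressed genes. The first was 24 (32% of the list genes, beside 25.9% of all expressed genes) without G34W replicate 1 and 10 (13.3%, beside 15.9%) without WT replicate 2. The second was 42 (56%, beside 46.1%) without G34W replicate 2, 17 (22.7%, beside 19.0%) without WT replicate 1 and 6 (8.0%, beside 14.8%) without EV replicate 2. With each library rescaled to a median ratio of 1, they were 10 and 7 (13.3% and 9.33%, beside 9.21% and 10.02%).

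To see whether the region of MDK moved as a whole, genes with a start within 500 kb of that of MDK were examined. Of 31 annotated genes, 15 were in the table and 13 expressed. In G34W replicate 1, 12 of the 13 were below the WT mean, with a median log2 ratio of -0.47, where 68.9% of all expressed genes were below it and their median was -0.21. In G34W replicate 2, 9 were above it and 4 below, with a median of 0.04, where 45.6% of all expressed genes were below it and their median was 0.03. MDK itself stood at 1.53 and 1.19 in these libraries on the same scale. CKAP5, a microtubule regulator, and DGKZ, a diacylglycerol kinase, had the highest deposited values. CKAP5 held 10209 in EV replicate 2, 10188 and 10123 in the WT libraries, and 6989.9 and 9022 in G34W. This put both G34W libraries below the controls, as in 9.65% of all expressed genes. DGKZ, whose gene starts 47.9 kb from MDK, held 4473 and 6183 in G34W within or below a control range of 5228 to 6868.

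LARGE2, a glycosyltransferase gene that starts 459 kb from MDK, was the exception among these neighbours. It held 6.72 in EV replicate 2, 9.46 and 12.1 in the WT libraries, and 428 and 67.2 in the G34W libraries. Both G34W libraries were above every control, and G34W replicate 2 was 5.53 times the highest of these controls, EV replicate 1 left aside. The log2 fold change was 3.87 (SE 1.09), with an unadjusted p under 0.05 but a limma adjusted p of 0.906. EV replicate 1 gave 30.6 after rescaling, above each of these controls and below both G34W libraries. Against that value the ratio of G34W replicate 2 is smaller than 5.53. The gene counts as expressed only through G34W replicate 1, the mean of the other 4 libraries being 23.9.

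**Figure D4:**
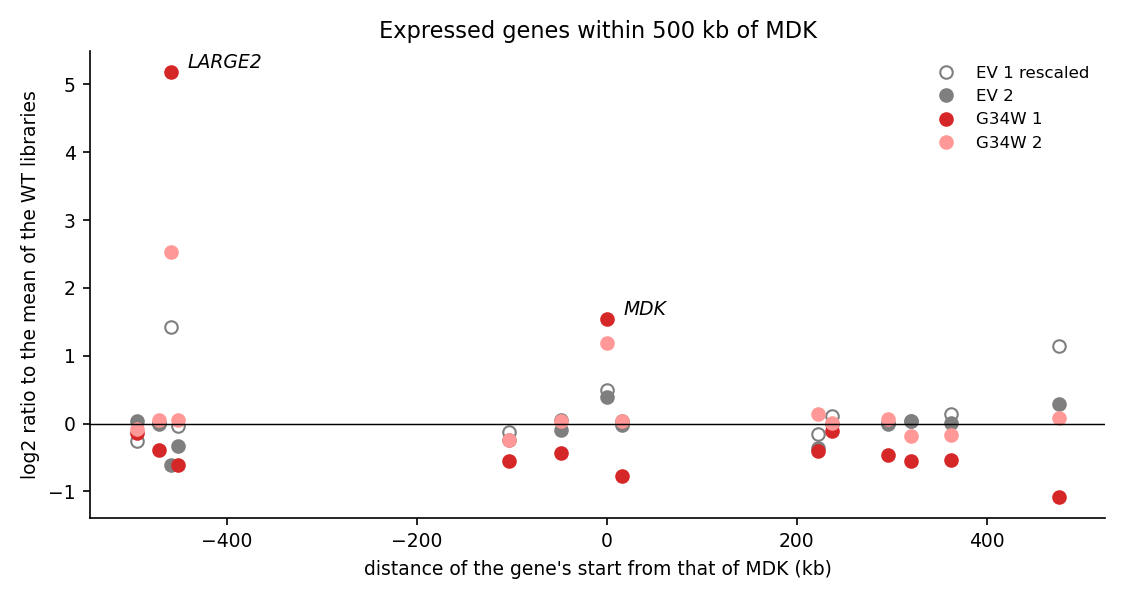
Log2 ratio to the mean of the WT libraries (y axis) against the distance of each expressed gene's start from that of MDK in kb (x axis), for both G34W libraries, EV replicate 2 and EV replicate 1 after rescaling. MDK (1.53 and 1.19) and LARGE2 (5.18 and 2.53) are the genes with both G34W libraries well above 0.

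The markers of pluripotent stem cells moved with G34W replicate 1. All 12 were highest there and exceeded each of EV replicate 2, WT replicates 1 and 2 and G34W replicate 2 by more than 2-fold. POU5F1, a transcription factor of the pluripotent state and the most abundant of them in G34W replicate 1, held 41.6 in EV replicate 2, 47.3 and 75.4 in the WT libraries, 19441 in G34W replicate 1 and 65.7 in G34W replicate 2. In the other 4 libraries DNMT3B, a DNA methyltransferase, had the highest value of the list, 395 to 541. The list summed to 1142, 982, 1058, 66363 and 955 in the same order. UTF1 was the one marker listed at 0 in 3 of the libraries, EV replicate 2, WT replicate 2 and G34W replicate 2. MDK, PTPRZ1, ALKAL2 and CRABP1 had their highest values in this library too, and ALK and LRP1 their lowest. The part of the cells or RNA behind these markers in the values of G34W replicate 1 was not tested. In G34W replicate 2 the marker sum was below that of each control, with DNMT3B its largest part, and of the 12 markers 5 were below each control, 4 within their range and 3 above each. Those above were SOX2 (7.96 against at most 7.22), LIN28B (253 against at most 234) and SALL4 (60.1 against at most 53.1), named after their values were seen. MDK was 940.1 in this library against at most 544 in the controls. Without G34W replicate 1, the MDK log2 fold change was 1.21, a direction already fixed by how MDK was chosen.

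**Figure D5:**
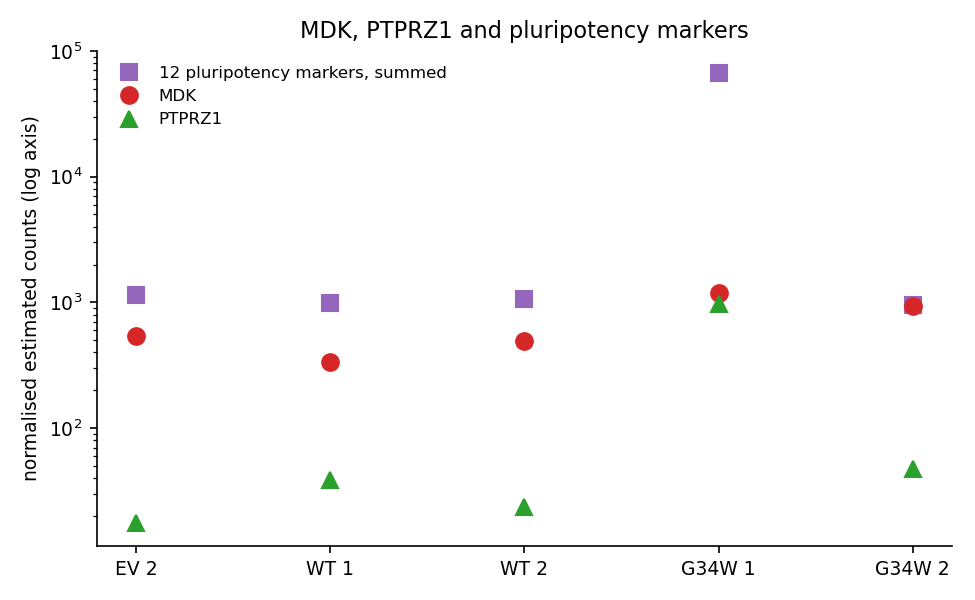
Normalised estimated counts (y axis, log scale) of MDK, of PTPRZ1 and of 12 pluripotency markers summed, in each of 5 libraries (x axis). The marker sum is 66363 in G34W replicate 1 and 955 in G34W replicate 2, where MDK is 1197 and 940.1 and PTPRZ1 969.6 and 47.7.

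Markers of other cell types were examined in the same way. The list of 11 neural genes summed to 16591 in EV replicate 2, 14081 and 21935 in the WT libraries, and 10730.5 and 14372 in G34W, with NES (nestin) the most abundant. MAP2, a neuronal microtubule protein, had an unadjusted p under 0.05 for G34W against WT (log2 fold change 3.80, SE 0.47, limma adjusted p = 0.604). It held 5.28 and 2.35 in WT and 77.2 and 51.1 in G34W, but 116 in EV replicate 2, above both. The 5 myeloid genes summed to 1034 to 1417, mostly CD68, with PTPRC at 4.90 to 25.4 and AIF1 at 0 in 3 libraries. The 5 endothelial genes summed to 2090 in WT replicate 1, 2120 in WT replicate 2, 2150 in EV replicate 2, 2324 in G34W replicate 1 and 876 in G34W replicate 2, mostly TEK, with CDH5 at no more than 10.9. TEK, a receptor for angiopoietins, held 1952 in EV replicate 2, 1829 and 1958 in the WT libraries, and 1548 and 782 in the G34W libraries. KDR, a VEGF receptor named after its values were seen, moved with G34W replicate 1, at 656 there against 26.6 to 78.3 in the other 4 libraries.

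The expressed genes whose profile over the 5 libraries came closest to that of MDK were sought by the root mean square difference of centred log2 values. EFNA3, a membrane-bound ephrin ligand, was nearest at 0.13, followed by WNK3, a kinase that regulates ion transport, at 0.14, PYCARD, an inflammasome adaptor, at 0.15, BMF, a pro-apoptotic BCL2 relative, at 0.18, and FGF12, an intracellular FGF homologous factor, at 0.19. EFNA3 held 42.6 in EV replicate 2, 29.5 and 40.1 in the WT libraries, and 93.7 and 93.5 in the G34W libraries. Like MDK, it was lowest in WT replicate 1 and had EV replicate 2 as its highest control. PYCARD held 103, 49.1 and 92.5 in these controls and 197 and 179 in G34W. In all, 6 of 13402 genes lay within 0.2 of the MDK profile. These genes were picked for their likeness to MDK, and their values are a description.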

How the data were processed

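Poly(A) RNA was sequenced. The labels name a directional library kit, while the study's methods also describe a preparation without strand marking. Transcript abundances were estimated by the authors with kallisto and Ensembl GRCh38 models, collapsed to genes through tximport and normalised in DESeq2. The deposited signal is therefore a normalised estimated count per gene, not a read count; no depth was recovered from it, and no count-based test was run. Members and lists were chosen with earlier results of these data known.

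Values were transformed as log2(value + 1). Genes above 0 in at least 1 of 5 libraries (24560) were fitted with limma 3.58.1 in R 4.3.3, without covariates and with Benjamini-Hochberg adjustment over all of them and a threshold of 0.05. A group with 1 library was assumed to vary like the others. The script was tested on simulated data. EV replicate 1 was left out of the fit. Chromosomes were taken by identifier from a GENCODE annotation (99.1% matched), coordinates and promoter windows from RefSeq (GRCh38.p14), and canonical transcript lengths from GENCODE.

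Named genes were the 6 members, list genes with an unadjusted p under 0.05 in G34W against WT, the 2 most abundant genes per list by deposited value, and the 5 profiles nearest to MDK. Other list genes and the single cell type markers named were picked once values had been seen. Plots were drawn with matplotlib 3.10.9. Alternatives were a pseudocount of 0.1, rescaled libraries, a filter (at least 10 in 2 libraries), a variance trend, a replicate block, all 6 libraries and leaving out each library.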

Additional observations from a re-analysis of the deposited data

How the results depend on the processing

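The MDK log2 fold change of 1.38 was 1.39 with a pseudocount of 0.1, 1.45 with rescaled libraries, and 1.12 to 1.65 when each library was left out. MDK was chosen for G34W values above the controls, so leaving out any library could not reverse its direction. The filter, the variance trend, the replicate block, all 6 libraries and the fit without EV replicate 2 leave a fold change of G34W against WT as it is by construction and bear only on its p. Of the 30 alternatives that could move it for PTN, PTPRZ1, ALK, LRP1 and NCL, 29 kept the direction. The exception was NCL, -0.61 to 0.15 over the libraries left out. In the same way PTN ranged from 0.10 to 0.28, PTPRZ1 from 0.64 to 4.96, ALK from -1.94 to -0.77 and LRP1 from -0.55 to -0.12. No limma adjusted p of these genes was under 0.05 in any alternative. An unadjusted p under 0.05 was seen for ALK with the filter and without G34W replicate 2, and for PTPRZ1 without G34W replicate 2 and with the filter and trend together, a setting chosen after seeing the data.

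The count of genes past the threshold was 0 for G34W against WT in every alternative run. With a pseudocount of 0.1 it was 411 for WT against EV replicate 2 and 422 for G34W against EV replicate 2, and the cause was not tested. Neither comparison can be run without EV replicate 2. List genes with both G34W libraries above the controls numbered 10 after rescaling and 7 to 24 with each library left out, and those below 7 and 4 to 42. The rescaled EV replicate 1 value was 579 to 587 for MDK and 8927 to 9051 for LRP1, with scales from chromosomes 10 and 11 only.

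With the replicate number as a replicate block, the MDK value is 1.38 by construction, since both groups hold both numbers, and the counts past the threshold were again 0. Same-numbered WT and G34W libraries deviated with a correlation of 0.087 across genes, and the numbers pair the libraries in name only.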
